A study of Mus musculus with 24 samples.

Results

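The genes described here encode the proteins of the cytosolic ribosome, followed across the lungs of mice exposed to diesel exhaust and treated in several ways. They are the protein-coding genes with symbols of the Rpl and Rps series together with Rpsa, Rplp0, Rplp1 and Rplp2, without the S6 kinases and without pseudogenes. The rule found 83 of the 78275 genes in the count table: 43 of the large subunit, 31 of the small subunit, 3 of the stalk and 6 paralogs. Fau, which encodes a ribosomal protein fused to a ubiquitin-like sequence, falls outside the naming rule. All libraries came from whole lung of male C57BL/6 mice aged 20 weeks, sequenced from poly(A) RNA, in 8 groups of 3. DE+PFD+RIC mice were exposed to diesel exhaust, took pirfenidone and received remote ischemic conditioning during the exposure. RIC+DE+PFD mice were conditioned before the exposure and took pirfenidone. DE+RIC mice were conditioned during the exposure and RIC+DE mice before it, both without the drug. DE+PFD mice had exhaust and pirfenidone, DE mice exhaust alone, RIC mice conditioning alone, and C mice no treatment. The exposure lasted 30 min per day on 5 days per week for about 8 weeks. Conditioning, cycles of blocked and restored blood flow, was applied to the left leg in 3 cycles of 5 min ischemia and 5 min reperfusion, on 3 days per week for 4 weeks. Pirfenidone, an antifibrotic drug, was an oral daily dose of 300 mg/kg, suspended in 0.5% carboxymethylcellulose and taken 6 days a week. No group of these 8 is labelled as given carboxymethylcellulose alone. The labels do not say whether a library is 1 mouse or a pool, so the spread between libraries may hold technical variation only.

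The small subunit of the ribosome reads the mRNA, the large subunit joins amino acids, and the stalk proteins on the large subunit recruit the translation factors. Their proteins are made in near-equal numbers, and their mRNAs carry a terminal oligopyrimidine (TOP) sequence, a C followed by further pyrimidines at the very start, through which the kinase mTORC1 and the protein Larp1 control their translation together. Because every growing or dividing cell needs them, these mRNAs are among the most abundant of most tissues, lung included, and they are also among the shortest.

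Start-site sequences were available for 63 of the 83 genes, from RefSeq on GRCm38.p6, and those below are of members that the results describe, with Rpl35 as a long TOP sequence and the 4 tested paralogs at the end. Each is 15 bases before the annotated start and 15 bases from it on, 5′ to 3′ on the gene's strand. Capitals mark the longest run of C and T, of at least 5 bases, that touches the 4 bases on either side of the start.
Rpl31, chr1:39367836-39367865 (+): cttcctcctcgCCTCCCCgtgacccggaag
Rps27, chr3:90213634-90213663 (-): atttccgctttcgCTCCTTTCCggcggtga
Rpl39, chrX:37085208-37085237 (-): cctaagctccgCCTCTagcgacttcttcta
Rplp0, chr5:115559452-115559481 (+): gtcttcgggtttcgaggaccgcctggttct
Rplp2, chr7:141447636-141447665 (+): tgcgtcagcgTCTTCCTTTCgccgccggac
Rps6, chr4:86857353-86857382 (-): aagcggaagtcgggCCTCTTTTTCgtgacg
Rpl4, chr9:64173372-64173401 (+): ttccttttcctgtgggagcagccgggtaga
Rpl35, chr2:39005117-39005146 (-): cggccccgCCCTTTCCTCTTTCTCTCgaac
Rps27l, chr9:66946071-66946100 (+): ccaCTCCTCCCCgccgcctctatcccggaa
Rpl22l1, chr3:28805493-28805522 (+): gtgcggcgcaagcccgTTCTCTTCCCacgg
Rpl7l1, chr17:46782642-46782671 (-): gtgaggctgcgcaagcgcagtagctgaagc
Rpl3l, chr17:24727811-24727840 (+): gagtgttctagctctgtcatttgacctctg
Among these the longest run was the 18 bases of Rpl35, and Rplp0, Rpl4, Rpl7l1 and Rpl3l had no such run. Such a run was present in 33 of the 63 members (52.4%), against 31.4% of the 26962 other genes in the table. An annotated start that was itself C and was followed by 4 pyrimidines was found in 13 of the 63 members (20.6%), against 2.97% of the others. In the 300 bases around the start, CTCTTTC on the transcribed strand occurred in 20.6% of members and 4.57% of the others. CCGGAAG, the core letters of ETS-family sites, occurred on either strand in 26 members (41.3%) and in 9.85% of the others. AAGATGG, the core letters of YY1 sites, occurred on either strand in 15.9% of members and 7.26% of the others. CTCTTTC and a run of pyrimidines overlap by construction, and annotated starts can lie a few bases from the start a cell uses.

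Total counts ran from 3906807 to 18494156 per library. The labels also give each library a batch date, 9 in March, 14 in October and 1 in November, whose meaning the labels do not state. All RIC+DE libraries were March and all DE libraries October, so between these groups batch and treatment cannot be told apart. 1 library stood apart: in RIC+DE+PFD 1 the ribosomal protein genes took 11.7% of all counts, against 2.46% to 5.59% in the other 23. In that library the 100 most counted genes held 39.6% of all counts, against 18.1% to 29.7% elsewhere, and its deviations from the 24-library mean were lower in longer transcripts, with a Spearman correlation across the tested genes of -0.604. Levels below are CPM, counts scaled to an equal library size after trimmed-mean (TMM) correction, which sets the size of RIC+DE+PFD 1 at 0.637 times its total. The lung markers were present throughout: the summed level of 5 epithelial genes (among them Sftpc and Scgb1a1) was 26288 to 94930 CPM in 23 libraries and 240749 CPM in RIC+DE+PFD 1. Medians without this library are given beside those of the comparisons it moved, and the leading fold changes with them. DE 1 stood apart in other tissue markers: adipocyte genes summed to 2383 CPM there and to 113 to 1455 CPM in the other 23 libraries, mast cell genes to 79.7 CPM against 2.93 to 39.0 CPM, and genes of thymus or lymph node to 437 CPM against 43.8 to 243 CPM.

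Of the 83 genes, 79 had enough counts for a test. The untested were Rpl10l and Rpl24 with 0 counts, Rps10 with 2 and Rpl39l with 23 over all 24 libraries. Rpl24 and Rps10 encode core proteins of the large and small subunit, and together with Rpl13a, which had 4025 counts in all, they share the largest parts of their exons with another annotated gene on the same strand (484 of 1030 exon bases in Rpl24, 748 of 2114 in Rpl13a and 475 of 2311 in Rps10). Among the 83, 27 share any exon bases. The part of this overlap in their low counts was not tested. Pseudogene copies, of which the table has 298, held 0.00432% to 0.025% of the counts of a library, and the Rpl38 copies, with 6.65 counts per 100 of Rpl38, were the largest share among tested parents. Copies of the untested Rps10 held 1001 counts, 882 of them on Rps10-ps2, beside the 2 counts of Rps10. Their part in its low count was not tested.

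Levels per length were compared as TPM, counts over the length of the principal transcript scaled to an equal sum in each library, as means over 24 libraries. The 79 tested members ranged from 1.82 to 3699 TPM with a median of 1099 TPM. The highest were Rplp1, a stalk protein, at 3699 ± 1057 TPM (SD, n = 24), Rpl41, a very short peptide of the large subunit, at 3097 TPM, and the small-subunit genes Rps14 at 2834 TPM, Rps15 at 2813 TPM and Rps27 at 2785 TPM. At the low end stood the paralog Rpl3l at 1.82 TPM, then Rpl13a at 25.0 TPM, the paralogs Rpl7l1 at 90.5 TPM and Rpl22l1 at 179.9 TPM, and Rps20 at 220.6 TPM. The Rps20 value rests on a principal transcript of 3706 bases, by far longer than the median of 751 bases. The order also depends on the length used: with the length of all exons joined, Rplp1 was still the highest, while Rps14 was 23rd and Rps20 was 67th of 79.

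**Figure D1:**
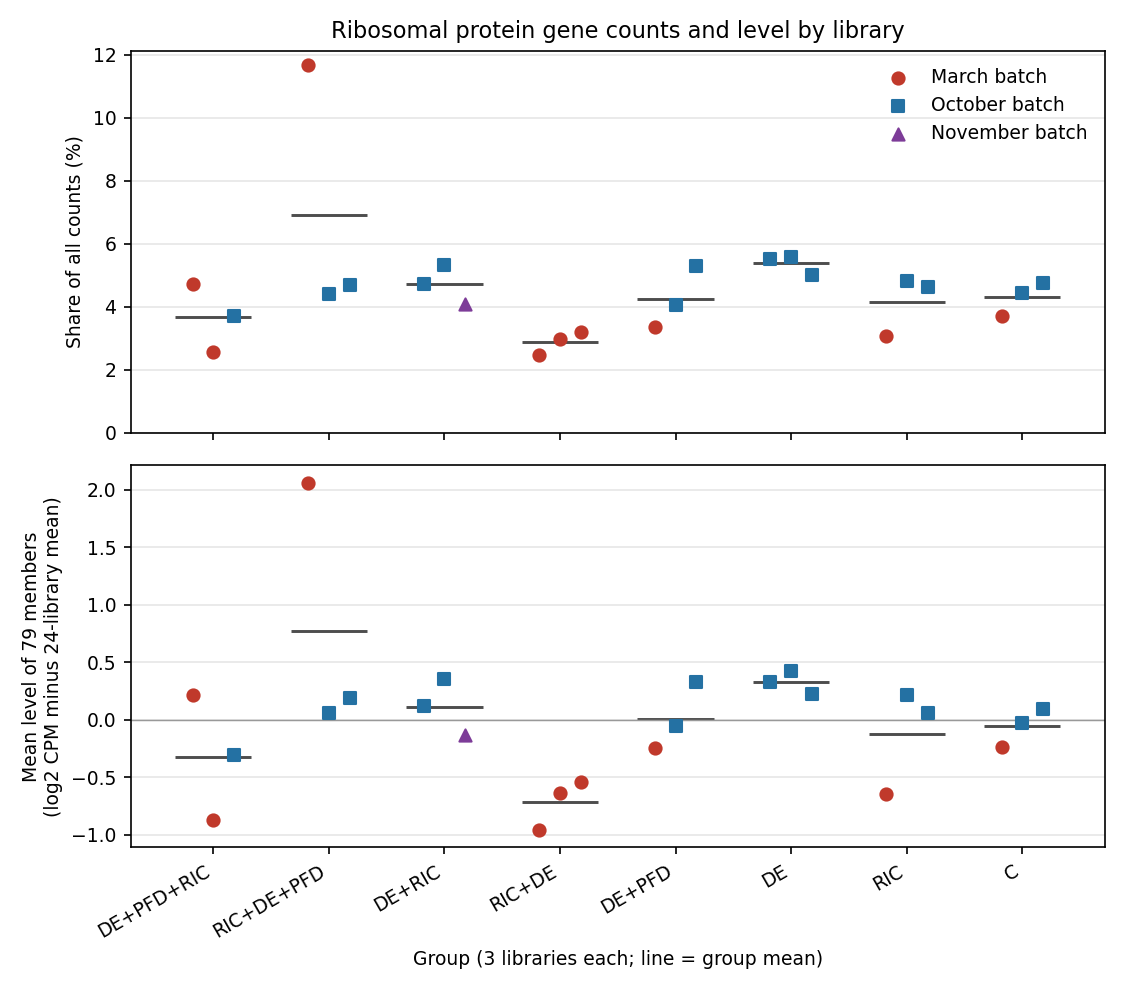
Share of all counts on the 83 genes (upper panel, %) and the mean level of the 79 tested members (lower panel, log2 CPM minus the 24-library mean) for each library, by group, with the batch as marker and colour and a line at the group mean. RIC+DE+PFD 1 stands at 11.7% and 2.06, the RIC+DE libraries lie at the bottom and the DE libraries lie close together above 0.

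The members varied as a block. In most libraries nearly all members lay on the same side of their own 24-library mean: 79, 78 and 78 of 79 were above it in the DE libraries, and 1, 0 and 1 in the RIC+DE libraries. The mean level of the 79, as log2 CPM minus the 24-library mean, was 0.33, 0.42 and 0.23 in DE and -0.96, -0.64 and -0.54 in RIC+DE. It was 0.21, -0.87 and -0.31 in DE+PFD+RIC, 2.06, 0.06 and 0.19 in RIC+DE+PFD, 0.12, 0.36 and -0.14 in DE+RIC, -0.25, -0.06 and 0.33 in DE+PFD, -0.64, 0.21 and 0.06 in RIC, and -0.24, -0.03 and 0.10 in C. RIC+DE lay below 0 in all libraries, RIC+DE+PFD and DE above 0 in all, and the other 5 groups on both sides. The SD between libraries of a group was 0.50 on this log2 scale (16 degrees of freedom), and 0.31 without RIC+DE+PFD 1. In a tissue sample, fewer cells of a ribosome-rich type and less of these mRNAs per cell cannot be told apart.

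The proportions among the classes varied less than their sum. Large-subunit genes took 49.7% to 51.9% of the members' counts in every library, small-subunit genes 41.0% to 43.5%, the stalk genes 5.40% to 6.70% and the paralogs 0.367% to 0.633%. In RIC+DE+PFD 1 the large-subunit share was 50.4%, within the range of the other libraries.

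**Figure D2:**
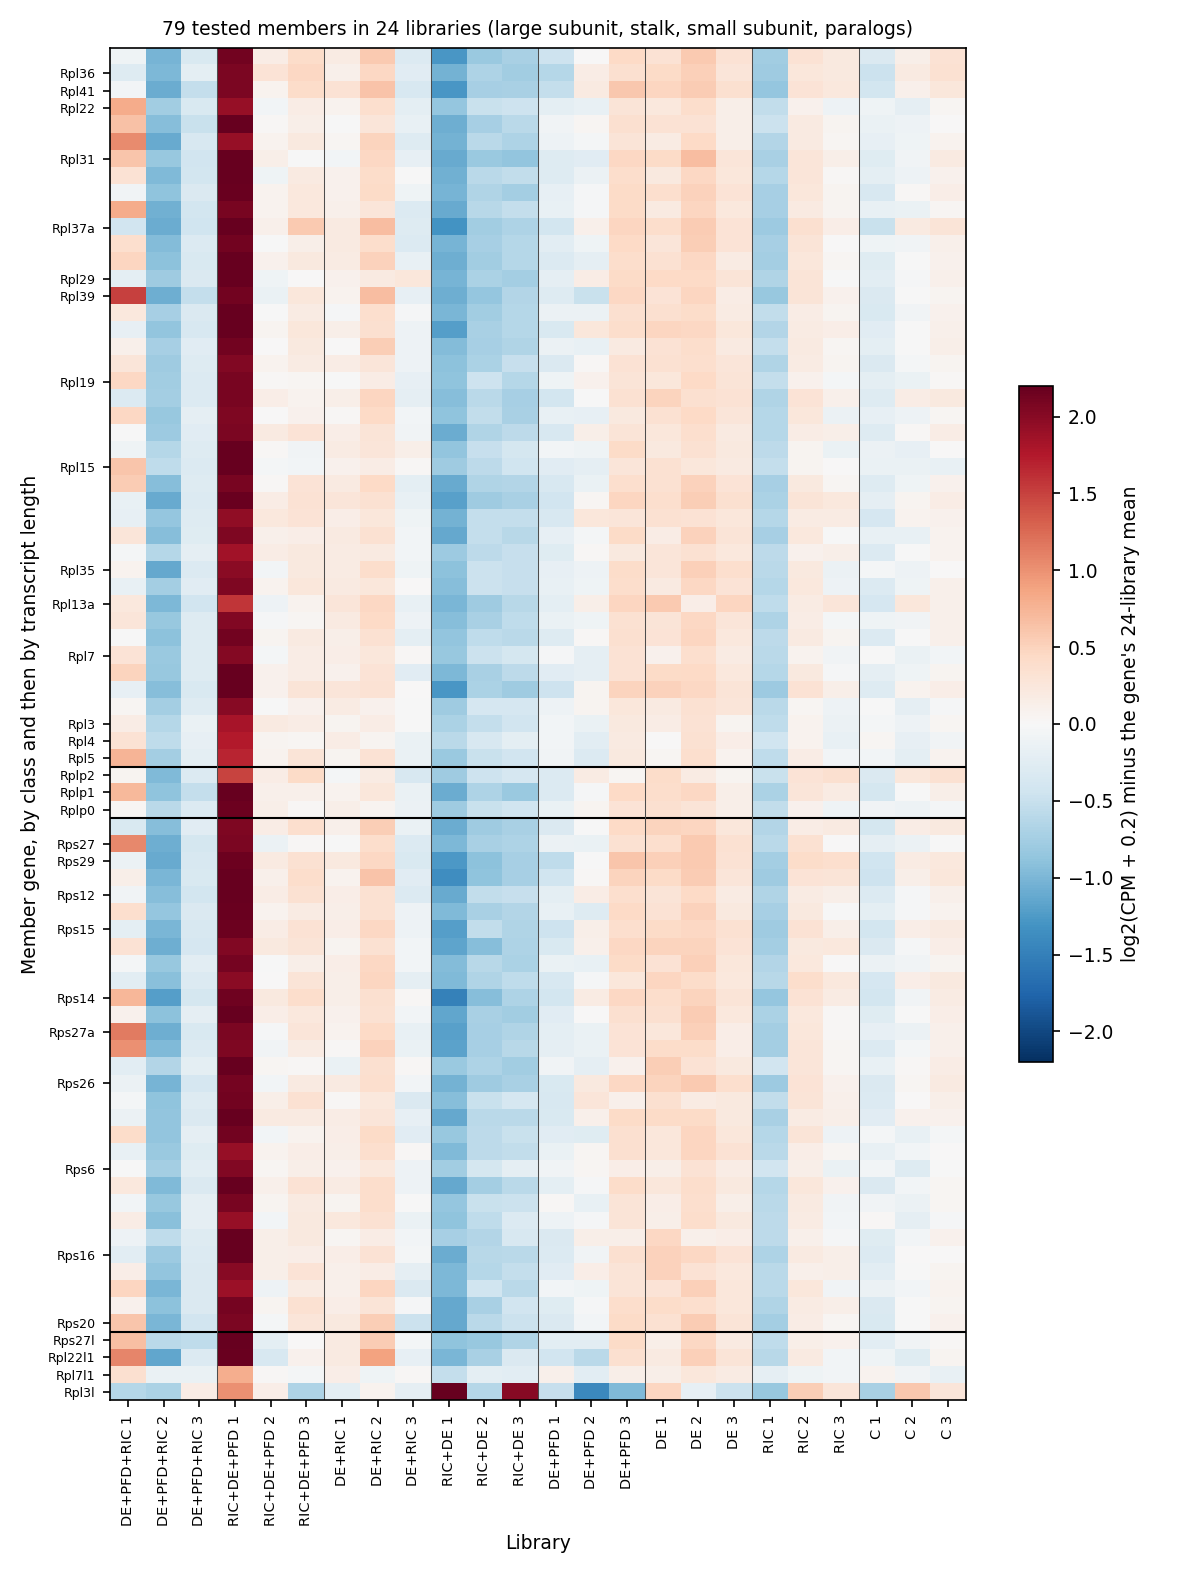
The 79 tested members (rows, by class and then by transcript length, with some of the genes named) in 24 libraries (columns, by group), as log2(CPM + 0.2) minus each gene's 24-library mean, with the colour scale ending at 2.2 either way. Columns are nearly uniform in colour; Rpl7l1 and Rpl3l, at the bottom, are the rows that depart from the rest, and DE+PFD+RIC 1 is the most mixed column.

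Single members differed in how far they varied. The SD of log2 CPM over the 23 libraries other than RIC+DE+PFD 1 had a median of 0.43. It was lowest in Rpl7l1 (0.19), Rpl4 (0.25), whose protein lines the exit tunnel, and Rps6 (0.28), the classical substrate of the S6 kinases. It was highest in Rpl3l (0.93), Rpl39 (0.61), a small tunnel protein, and Rps14 (0.60). Short mRNAs varied more than long ones: the median SD was 0.48 in the 29 members under 600 bases, 0.41 in the 25 of 600 to 900 bases and 0.39 in the 25 over 900 bases, and the Spearman correlation of length with SD was -0.52 across the 79, which share libraries and depth.

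DE libraries had more ribosomal protein mRNA than C libraries, by a margin that no member's test passed. Rps27, of the small subunit, had 734, 837 and 711 CPM in DE lungs, against 490, 518 and 563 CPM in C lungs. All DE libraries were above all C libraries, with a log2 fold change of 0.66 ± 0.48 (SE, adjusted p = 0.988, edgeR), the highest of the members. Rplp0, the anchor of the stalk and a common reference gene, had 1358, 1306 and 1173 CPM in DE lungs, against 1012, 995 and 1041 CPM in C lungs, again without overlap. Rpl22l1 at 0.58 ± 0.53 and Rpl31 at 0.57 ± 0.47 came next. The lowest log2 fold changes were those of Rpl3l at -0.16 ± 0.75, Rplp2 at 0.08 ± 0.33 and Rpl3, near the peptidyl transferase centre, at 0.29 ± 0.33.

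Over the members, 78 of 79 had a log2 fold change above 0 in DE against C, where 49.9% of all 17490 tested genes did, and the median was 0.45 against -0.00057 over all genes. In 72 of 79 every DE library was above every C library, where 7.60% of all genes had that order. edgeR's quasi-likelihood test called 0 members and 0 genes (0%) at an adjusted p under 0.05, and 0 members reached an unadjusted p under 0.05, where 3.33% of genes did in either direction. DESeq2 called 0 members as well. Within October alone the mean levels were 0.33, 0.42 and 0.23 in DE libraries and -0.03 and 0.10 in C libraries, still without overlap. The median ran from 0.28 to 0.58 with 1 library left out, lowest without RIC+DE+PFD 1. Markers of other cells differed as well, though not library by library with the members. The 6 T cell genes summed to 224, 86.4 and 123 CPM in DE 1, 2 and 3 and to 61.9 to 95.2 CPM in C lungs. The 5 B cell genes summed to 522, 249 and 260 CPM in DE and 131 to 323 CPM in C. DE 2, with the highest member level of DE, lay within the C range of both. The 5 erythroid genes summed to 4154, 5878 and 5636 CPM in DE and 3479 to 4134 CPM in C. Thymus or lymph node genes had a median log2 fold change of 3.86, mast cell genes of 2.61 and adipocyte genes of 2.35, and 3 of 3, 4 of 4 and 5 of 6 tested were higher at an unadjusted p under 0.05. Adipocyte genes summed to 2383, 294 and 655 CPM in DE lungs and to 131, 222 and 282 CPM in C lungs. Without DE 1 these marker medians were 2.99, 1.94 and 1.05, and the ribosomal protein median was 0.45, with 77 of 79 members above 0. Across the tested genes, deviations had Spearman correlations with transcript length of -0.306, -0.359 and -0.22 in DE libraries. In C libraries these were 0.378, -0.146 and -0.258. With each library's length trend removed, mean levels were 0.17 in DE and -0.04 in C, in place of 0.32 and -0.06. Among alternatives other than leaving out 1 library, the lowest median was 0.24. The part of these cells and of length in the ribosomal result was not tested, apart from these values.

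Lungs after conditioning alone had ribosomal protein mRNA levels on both sides of the controls. Rplp0 had 734, 1137 and 996 CPM in RIC lungs, against 1012, 995 and 1041 CPM in C lungs. Rps6 had 349, 514 and 426 CPM in RIC lungs and 449, 385 and 467 CPM in C lungs. In both genes RIC 1 was below and RIC 2 above all C libraries, and RIC 1 was the RIC library dated March. The log2 fold changes ran from -0.13 ± 0.32 in Rpl3, through Rpl36 and Rpl23 at -0.10, to 0.11 ± 0.47 in Rps27, with Rps29 at 0.07 and Rpl34 at 0.06. The median was -0.02, with 23 of 79 above 0 where 49.0% of all genes were. edgeR called 0 members and 0% of genes; 0 members had an unadjusted p under 0.05, where 1.20% of genes did, and DESeq2 called 0 members. The median turned to 0.30 without RIC 1 and was -0.23 without RIC 2.

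**Figure D3:**
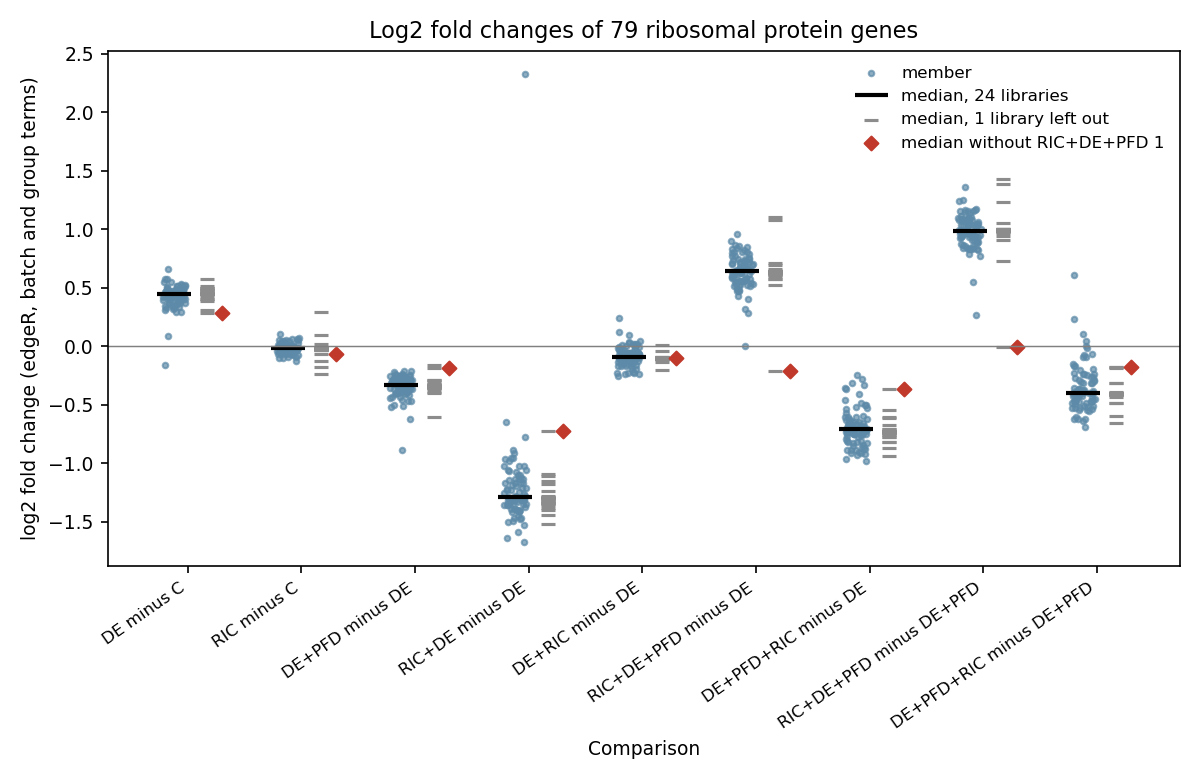
Log2 fold change of each of the 79 tested members (points) in 9 comparisons, from the fit with batch and group terms, with the median over 24 libraries (black bar), the medians with each library left out (grey dashes) and the median without RIC+DE+PFD 1 (red diamonds). The RIC+DE minus DE median goes to -0.72, and the medians of RIC+DE+PFD minus DE and minus DE+PFD go to -0.22 and -0.01, when that library is left out.

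Among the 9 comparisons of groups, the members' median was farthest from 0 in RIC+DE against DE lungs. Rpl31, of the large subunit, had 234, 287 and 274 CPM in RIC+DE lungs, against 674, 806 and 604 CPM in DE lungs. Rps27 had 285, 344 and 353 CPM in RIC+DE lungs and 734, 837 and 711 CPM in DE lungs. Rpl39 had 110, 126 and 146 CPM in RIC+DE lungs and 284, 318 and 256 CPM in DE lungs. In all of these the groups stood well apart, and their log2 fold changes, -1.68 ± 0.57, -1.64 ± 0.58 and -1.59 ± 0.68, were the lowest of the members. Rplp0 averaged 724 ± 93.0 CPM in RIC+DE and 1279 ± 95.6 CPM in DE (SD, n = 3 each), and Rps6 348 ± 67.3 CPM in RIC+DE and 542 ± 38.9 CPM in DE. The members nearest to 0 below it were Rplp2, with 277, 350 and 370 CPM in RIC+DE lungs and 632, 544 and 499 CPM in DE lungs, at -0.65 ± 0.39, Rpl7l1 at -0.77 ± 0.22 and Rpl4 at -0.89 ± 0.39. Rpl3l alone was above 0, at 2.33 ± 0.85.

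The members' median log2 fold change in RIC+DE against DE was -1.29, against 0.00 over all genes, and was -1.30 in the large subunit, -1.28 in the small subunit and -1.14 in the stalk. In 78 of 79 every RIC+DE library was below every DE library, where 20.6% of all genes had that order. 76 members were lower at an unadjusted p under 0.05, where 9.47% of genes were, and 1, Rpl3l, was higher, where 7.82% of genes were. After adjustment over all 17490 genes 0 members and 0% of genes passed, with adjusted p-values from 0.274 to 0.361. The call turns on the genes entered and the libraries fitted: without the filter on low counts 70 members were called (69 lower and 1 higher, with 2.73% of 41345 genes called), and with the RIC+DE and DE libraries alone, which leaves no batch term, 77 were called lower, with 23.3% of genes called. DESeq2 called 0. Without RIC+DE+PFD 1, which enters through the batch term, the median was -0.72, 66 members were lower at an unadjusted p under 0.05, where 6.65% of genes were, and 0 were called. Rpl31 was then at -1.075 ± 0.379, Rps27 at -1.10 ± 0.45 and Rpl39 at -1.01 ± 0.58. The median was -1.30 without DE 1, and it was -0.74 with each library's trend on transcript length removed.

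Other features of these libraries moved with this difference. The erythroid genes summed to 1503 to 3339 CPM in RIC+DE lungs and 4154 to 5878 CPM in DE lungs, the T cell genes to 42.6 to 59.9 CPM in RIC+DE and 86.4 to 224 CPM in DE, and the epithelial genes to 26288 to 45208 CPM in RIC+DE and 57386 to 94930 CPM in DE. The skeletal muscle genes summed to 1816, 26.3 and 983 CPM in RIC+DE lungs and 27.8 to 47.5 CPM in DE lungs. Medians of marker log2 fold changes were 4.75 over 5 skeletal muscle genes, all higher at an unadjusted p under 0.05, -4.26 over 3 thymus or lymph node genes, all lower, -1.64 over 4 mast cell genes, 1 of them lower, and -1.23 over 5 neutrophil genes, 0 of them lower. Across the tested genes, deviations increased with transcript length in each RIC+DE library (Spearman 0.426, 0.495 and 0.497) and decreased in each DE library (-0.306, -0.359 and -0.22). Among the 79 members, the correlation of length with this log2 fold change was 0.448, and the median was -1.34 in those under 600 bases, -1.31 at 600 to 900 bases and -1.14 above. The part of cell composition, length and batch in the result was not tested, apart from the values with the length trend removed.

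Conditioning during the exposure gave values near or below those of exposure alone, within the spread. Rplp0 had 1167, 1110 and 975 CPM in DE+RIC lungs, against 1358, 1306 and 1173 CPM in DE lungs, and Rpl31 had 486, 694 and 444 CPM in DE+RIC and 674, 806 and 604 CPM in DE. The highest Rplp0 value in DE+RIC, 1167 CPM, was just below the lowest in DE, 1173 CPM, and the Rpl31 groups overlapped. How many members, and what share of all genes, had every DE+RIC library below every DE library is not reported here. The members' log2 fold changes ran from -0.25 ± 0.44 in Rpl19, with -0.24 ± 0.52 in Rpl31 close to it, up to 0.09 ± 0.61 in Rpl39, 0.12 ± 0.50 in Rps27l and 0.24 ± 0.57 in Rpl22l1. The median was -0.09, with 11 of 79 above 0, against 51.1% of all genes. edgeR and DESeq2 each called 0 members, and edgeR 0% of genes; 0 members had an unadjusted p under 0.05, where 3.23% of genes did. DE+RIC 3 is the only November library, has its own batch term and so adds nothing to these fold changes. The mean levels, which do include it, were 0.11 in DE+RIC and 0.32 in DE. The median was 0.01 without DE+RIC 1 and -0.21 without DE+RIC 2. Adipocyte genes (median -2.73), mast cell genes (-2.64), thymus or lymph node genes (-3.66) and T cell genes (-0.97) were below 0 with it, and their part was not tested. Without DE 1 the members' median was -0.10.

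Pirfenidone with exposure gave lower values than exposure alone, within the spread. Rplp0 had 969, 1111 and 1324 CPM in DE+PFD lungs, against 1358, 1306 and 1173 CPM in DE lungs. Rpl31 had 412, 424 and 694 CPM in DE+PFD and 674, 806 and 604 CPM in DE. In both genes the groups overlapped through DE+PFD 3, and 5 of 79 members had every DE+PFD library below every DE library, close to the 5.28% of all genes. The lowest log2 fold changes were those of Rpl3l at -0.89 ± 0.86, Rpl22l1 at -0.62 ± 0.53 and Rpl31 at -0.52 ± 0.47, and the highest those of Rps12 and Rpl8 at -0.22 and Rplp2 at -0.21 ± 0.33. All 79 members were below 0, where 49.1% of all genes were above it, with a median of -0.33. edgeR called 0 members and 0% of genes, DESeq2 called 0 members, and 0 members had an unadjusted p under 0.05, where 2.84% of genes did. The median ran from -0.60 without DE+PFD 3 to -0.16 without DE+PFD 1, and was -0.35 without DE 1. Other markers moved with it: the median was -4.40 in thymus or lymph node genes, with 3 of 3 tested lower at an unadjusted p under 0.05, -0.87 in T cell genes (5 of 6), -1.02 in B cell genes (2 of 5), -1.33 in mast cell genes (1 of 4) and -0.81 in mitochondrially encoded mRNAs (3 of 10). The part of these in the members' values was not tested.

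With pirfenidone and conditioning before the exposure, 1 library set the group's values. Rplp0 had 4759, 1171 and 1092 CPM in RIC+DE+PFD lungs, against 969, 1111 and 1324 CPM in DE+PFD lungs and 1358, 1306 and 1173 CPM in DE lungs. Rpl31 had 2368, 553 and 500 CPM in RIC+DE+PFD, against 412, 424 and 694 CPM in DE+PFD and 674, 806 and 604 CPM in DE. In both, RIC+DE+PFD 1 was above every other library, and the other 2 lay inside the range of DE+PFD and below every DE library. RIC+DE+PFD 1 minus the mean of RIC+DE+PFD 2 and 3 was above 1 on the log2 scale in 78 of 79 members, with a median of 1.95 and a range of 0.81 (Rpl7l1) to 2.38 (Rps27l); 3236 of all 17490 tested genes were above 1. Members of all lengths shared it, with medians of 1.95 under 600 bases, 2.002 at 600 to 900 bases and 1.91 above. Erythroid genes reached 11939 CPM in this library, against 2937 and 3536 CPM in the other libraries of its group, and with each library's length trend removed the members' mean level there was 1.17 in place of 2.06.

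Against DE+PFD, 63 of 79 members were higher in RIC+DE+PFD at an unadjusted p under 0.05, where 10.7% of genes were, and all 79 were above 0, where 51.4% of genes were. The median was 0.99, and the largest were Rpl3l at 1.36 ± 0.80, Rpl37a at 1.25 ± 0.45 and Rpl36 at 1.24 ± 0.41, the smallest Rpl7l1 at 0.27 ± 0.18, Rpl13a at 0.55 ± 0.39 and Rpl4 at 0.77 ± 0.33. 0 members and 0% of genes passed after adjustment in edgeR, where the lowest adjusted p was 0.248, and DESeq2 called 0 members. Without RIC+DE+PFD 1 the median was -0.01, with Rpl37a at 0.06 ± 0.24 and Rpl36 at 0.16 ± 0.19, and with no filter on low counts 55 members were called higher, with 1.63% of 41345 genes called. Against DE, all 79 were above 0, where 54.2% of genes were, with a median of 0.64; Rpl37a at 0.96 ± 0.48, Rpl36 at 0.90 ± 0.43 and Rps12 at 0.86 ± 0.45 were the highest, and Rpl7l1 at 0.00 ± 0.19, Rpl13a at 0.28 ± 0.40 and Rps27 at 0.32 ± 0.51 the lowest. Rpl36 alone was higher at an unadjusted p under 0.05, where 4.00% of genes were; 0 members and 0% of genes passed the adjusted threshold in edgeR, and DESeq2 called 0. Without RIC+DE+PFD 1 that median changed sign to -0.22, with Rpl36 at -0.04 ± 0.19, and with the October libraries alone, where mean levels were 0.06 and 0.19 in RIC+DE+PFD and 0.33, 0.42 and 0.23 in DE, it was -0.21. T cell genes (median -0.96), mast cell genes (-2.01), adipocyte genes (-1.88) and thymus or lymph node genes (-3.53) were below 0 in RIC+DE+PFD against DE, and their part was not tested.

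With pirfenidone and conditioning during the exposure the libraries differed widely among themselves. Rplp0 had 1097, 709 and 864 CPM in DE+PFD+RIC lungs, against 969, 1111 and 1324 CPM in DE+PFD lungs and 1358, 1306 and 1173 CPM in DE lungs. Rps27a, which encodes a small-subunit protein fused to ubiquitin, had 881, 189 and 319 CPM in DE+PFD+RIC, against 345, 363 and 494 CPM in DE+PFD and 476, 574 and 445 CPM in DE. Rps29 had 504, 258 and 435 CPM in DE+PFD+RIC, against 375, 547 and 847 CPM in DE+PFD and 800, 825 and 687 CPM in DE. DE+PFD+RIC 1 was above every DE and DE+PFD library in Rps27a and below every DE library in Rps29 and Rplp0. Rpl39 had 649 CPM in DE+PFD+RIC 1 and 109 and 159 CPM in DE+PFD+RIC 2 and 3, the widest ratio of the 79 within this group. DE+PFD+RIC 1 thus held members on both sides of their means, 47 of 79 above, while 0 and 1 were above in DE+PFD+RIC 2 and 3.

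Against DE, the median of the members in DE+PFD+RIC was -0.71. All 79 were below 0, where 48.9% of genes were above it, and in 40 of 79 every DE+PFD+RIC library was below every DE library, where 12.8% of genes had that order. The lowest were Rpl37a at -0.98 ± 0.48, Rps26 at -0.96 ± 0.46 and Rps16 at -0.93 ± 0.46, and the highest Rpl39 at -0.24 ± 0.63, Rpl3l at -0.28 ± 0.82 and Rpl5, a partner of Mdm2 in the p53 response, at -0.32 ± 0.40. Only 2, Rpl35 among them, were lower at an unadjusted p under 0.05, where 4.35% of genes were; edgeR called 0 members and 0% of genes after adjustment, and DESeq2 called 0 members. Without RIC+DE+PFD 1 the median was -0.36, and without DE 1 it was -0.73. T cell genes (median -1.07), mast cell genes (-2.18) and thymus or lymph node genes (-4.43) were below 0 too, and their part was not tested. DE+PFD+RIC 1 and 2 were March libraries and the DE libraries October, and the order of libraries is not adjusted for batch. Mean levels were -0.32 in DE+PFD+RIC and 0.32 in DE, and -0.11 and 0.17 with each library's length trend removed. The part of batch and length was not tested further. Against DE+PFD the median was -0.40, with 4 of 79 above 0, where 49.7% of genes were, from Rpl37a at -0.69 ± 0.45, Rpl29 at -0.64 ± 0.44 and Rpl41 at -0.62 ± 0.46 to Rpl22l1 at 0.10 ± 0.54, Rpl39 at 0.23 ± 0.59 and Rpl3l at 0.61 ± 0.83. edgeR called 0 members and 0% of genes, 0 members had an unadjusted p under 0.05, where 4.26% of genes did, and DESeq2 called 0. The median was -0.18 without RIC+DE+PFD 1 and -0.66 without DE+PFD 1.

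Whether conditioning acted differently with and without pirfenidone was tested as an interaction. For conditioning before the exposure it is the log2 fold change of RIC+DE+PFD over DE+PFD minus that of RIC+DE over DE. It was 2.72 ± 0.69 in Rpl31 and 2.58 ± 0.82 in Rpl39, the highest, and 1.66 ± 0.49 in Rpl4, 1.504 ± 0.484 in Rplp2, 1.04 ± 0.28 in Rpl7l1 and -0.97 ± 1.20 in Rpl3l, the lowest. The median was 2.27. 78 of 79 members were above 0, where 48.0% of genes were, and the same number were higher at an unadjusted p under 0.05, where 18.2% of genes were. In edgeR 0 members and 0% of genes passed, and the lowest adjusted p, 0.0742, was shared by most members. DESeq2 called 77 members, with 4.09% of 41345 genes called. edgeR called 78 without RIC 1 (9.42% of genes called), without RIC+DE+PFD 2 (16.3%) or without RIC+DE+PFD 3 (11.1%), and 74 with no batch term (9.45%). Skeletal muscle genes had a median interaction of -5.24 and thymus or lymph node genes of 4.65, and their part was not tested. The RIC+DE minus DE part sets March libraries against October libraries, so there batch and treatment cannot be told apart. Its batch adjustment comes from groups with both dates, and RIC+DE+PFD 1 is the only March library of RIC+DE+PFD. Without RIC+DE+PFD 1 the members' median was 0.67, with Rpl31 at 1.02 ± 0.54 and Rpl39 at 1.06 ± 0.83. Fewer members then kept an unadjusted p under 0.05, with their number and the share of all genes not reported here, and 0 were called.

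For conditioning during the exposure, the median interaction was -0.30, with 7 of 79 members above 0, where 51.1% of genes were. It ran from -0.72 ± 0.65 in Rpl37a, -0.64 ± 0.66 in Rpl41 and -0.54 ± 0.62 in Rps12 to 0.13 ± 0.73 in Rps27, 0.14 ± 0.84 in Rpl39 and 0.73 ± 1.18 in Rpl3l. edgeR called 0 members and 0% of genes, 0 members reached an unadjusted p under 0.05, where 2.69% of genes did, and DESeq2 called 0. These comparisons share the DE and DE+PFD libraries, so they are not independent of each other.

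The batch term of the same fit, March minus October, had a median of 0.21 over the members, with 68 of 79 above 0, where 53.2% of genes were. Rpl22l1 and Rps27l at 0.47 and Rpl15 at 0.45 were the highest, and Rpl3l at -0.34, Rpl36 at -0.19 and Rps29 at -0.11 the lowest. 1 member, Rpl7l1, was higher at an unadjusted p under 0.05, where 7.73% of genes were, and 0 members and 0.00572% of genes were called. Without RIC+DE+PFD 1 the median turned to -0.32 and 19 members were called lower in March, with 13.2% of genes called. The other 8 March libraries had mean levels of -0.96 to 0.21, and the 14 October libraries -0.31 to 0.42.

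The genes that work with the ribosomal proteins were read from lists, given here as counts and medians beside the members. Of 23 other TOP mRNAs, 22 were tested, among them the elongation factor Eef1a1 and Tpt1. In RIC+DE against DE 20 were below 0, with a median of -0.64, and 10 were lower at an unadjusted p under 0.05, where 9.47% of all genes were. Fau at -1.19 ± 0.48 and Tpt1 at -1.15 ± 0.47 led them. Fau itself encodes a ribosomal protein outside the naming rule, so this list is not fully separate from the members. Tpt1 had 933, 1137 and 1186 CPM in RIC+DE lungs and 1756, 1803 and 1662 CPM in DE lungs, without overlap. With RIC+DE+PFD 1 left out the median was -0.30 and 5 of the 22 were lower, where 6.65% of all genes were. In DE against C 18 of the 22 were above 0, where 49.9% of all genes were, with a median of 0.25, and of 0.15 without RIC+DE+PFD 1.

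Ribosome assembly factors and regulators had medians nearer to 0 or of the other sign. The 38 assembly and RNA polymerase I genes had a median of -0.13 in RIC+DE against DE, with 6 lower and 1 higher at an unadjusted p under 0.05, where 9.47% of all genes were lower and 7.82% higher. The leading ones, Nop10 at -1.497 ± 0.509 and Nhp2 at -1.23 ± 0.45, encode small proteins of the box H/ACA particles that guide pseudouridylation. Nucleolin (Ncl), a large nucleolar protein, had 260, 325 and 291 CPM in RIC+DE lungs and 224, 348 and 303 CPM in DE lungs, which overlap. The 24 regulators, among them the mTOR pathway genes, had a median of 0.30 there, with 3 higher and 1 lower at an unadjusted p under 0.05 beside those shares of all genes. Eif4ebp1, the inhibitor of cap-dependent translation under mTORC1, was at -1.03 ± 0.46, Rictor at 0.69 ± 0.32 and Tsc1 at 0.60 ± 0.28. The 30 translation factors had a median of -0.30, with Eif2s1 at -0.73 ± 0.25 and Eif4a1 at -0.62 ± 0.21. These medians were -0.14, 0.21 and -0.25 without RIC+DE+PFD 1. edgeR called 0 genes of any of these lists in any of the 11 comparisons.

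Other lists had shifts of the members' sign. The genes under 1000 bases are all tested protein-coding genes of that length other than the members. They can include ribosome genes outside the naming rule and genes of the other lists. In RIC+DE against DE the median was -1.14 over 47 nuclear subunits of oxidative phosphorylation, -0.75 over 75 mitochondrial ribosomal proteins and -0.81 over the other tested genes under 1000 bases. They were -0.60, -0.39 and -0.39 without RIC+DE+PFD 1, beside -0.72 for the members. In DE against C these medians were 0.55, 0.33 and 0.28, beside 0.45 for the members, and without RIC+DE+PFD 1 they were 0.40, 0.22 and 0.16, beside 0.28. In RIC+DE+PFD 1 minus the other libraries of its group they were 1.86, 1.48 and 1.52, beside 1.95 for the members and -0.14 for the assembly factors. The 10 tested mitochondrially encoded mRNAs had medians of -1.45 in RIC+DE against DE and 0.87 in DE against C, and of -1.10 and 0.77 without RIC+DE+PFD 1.

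**Figure D4:**
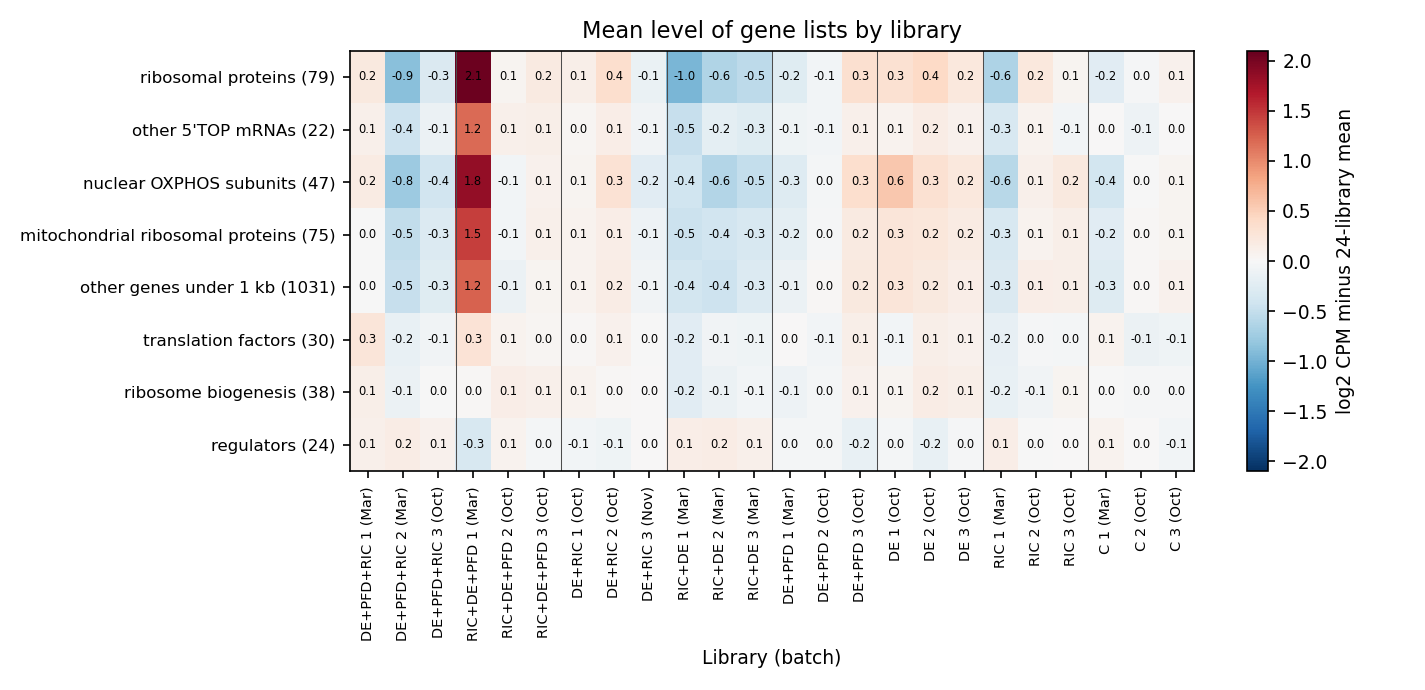
Mean level of 8 gene lists (rows, with the number of genes tested) in 24 libraries (columns, with the batch), as log2 CPM minus the 24-library mean, printed in each cell to 1 decimal. The ribosomal proteins, the nuclear OXPHOS subunits, the mitochondrial ribosomal proteins and the other genes under 1 kb share the sign of their level in most libraries, while the assembly factors and regulators lie between -0.33 and 0.16 in all libraries.

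The paralogs were read against their parents, as counts per 100 counts of the parent. Rpl22l1, which in mice takes the place of Rpl22 where that is lost, had 13.5 to 26.1 with a median of 18.6. The highest value was DE+RIC 2 and the lowest DE+PFD 2, and the groups overlapped: 16.4, 15.7 and 20.0 in RIC+DE, 17.8, 20.1 and 20.3 in DE, and 18.4, 17.4 and 18.6 in C. Rps27l, a p53 target, had 8.89 to 16.1 per 100 Rps27 counts, with both ends in the DE+PFD+RIC group. It had 13.4, 13.1 and 14.0 in DE+RIC, above the 9.82, 10.8 and 10.6 in DE and the 11.4, 11.97 and 11.9 in C. The 16.1 of DE+PFD+RIC 2 was above every DE+RIC library.

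Rpl7l1, a relative of Rpl7 with its own longer mRNA, had the smallest spread of the members over the libraries. Its CPM values were 49.8, 61.7 and 61.2 in RIC+DE, 78.96, 85.2 and 81.0 in DE, and 75.4, 68.4 and 64.2 in C. Per 100 Rpl7 counts it had 11.8, 11.5 and 10.7 in RIC+DE, 9.87, 8.83 and 9.54 in DE, and 10.1, 10.2 and 8.96 in C, the RIC+DE values being the highest of these 3 groups without overlap. In RIC+DE+PFD 1, where Rpl7 had 3027 CPM, it had 125 CPM and 4.12 per 100, the lowest of all libraries. The highest of all libraries was 15.2 per 100 in DE+PFD+RIC 2, above every RIC+DE library.

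Rpl3l, a paralog of Rpl3 made mainly in striated muscle, went against the other members. It had 115, 8 and 90 counts (7.44, 0.603 and 4.82 CPM) in RIC+DE lungs, against 14, 6 and 4 counts (1.53, 0.896 and 0.703 CPM) in DE lungs, and 1 to 18 counts in each library of the other groups. RIC+DE 1 and 3 were above every other library, and RIC+DE 2 was below all DE libraries. Its log2 fold change of 2.33 ± 0.85 had an adjusted p of 0.274 in edgeR, and was 2.83 without RIC+DE 2, 1.69 without RIC+DE 1 and 2.89 without RIC+DE+PFD 1. The skeletal muscle markers, of which 5 of 8 were tested and all 5 had an unadjusted p under 0.05, moved with it: their summed level was 1816, 26.3 and 983 CPM in RIC+DE 1, 2 and 3, against 27.8 to 47.5 CPM in DE lungs. Acta1 had 779, 0.0754 and 452 CPM in RIC+DE 1, 2 and 3 and at most 0.329 CPM in DE, and Atp2a1 had 264, 3.62 and 116 CPM in RIC+DE and at most 1.79 CPM in DE. The part of muscle RNA in the Rpl3l value was not tested.

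**Figure D5:**
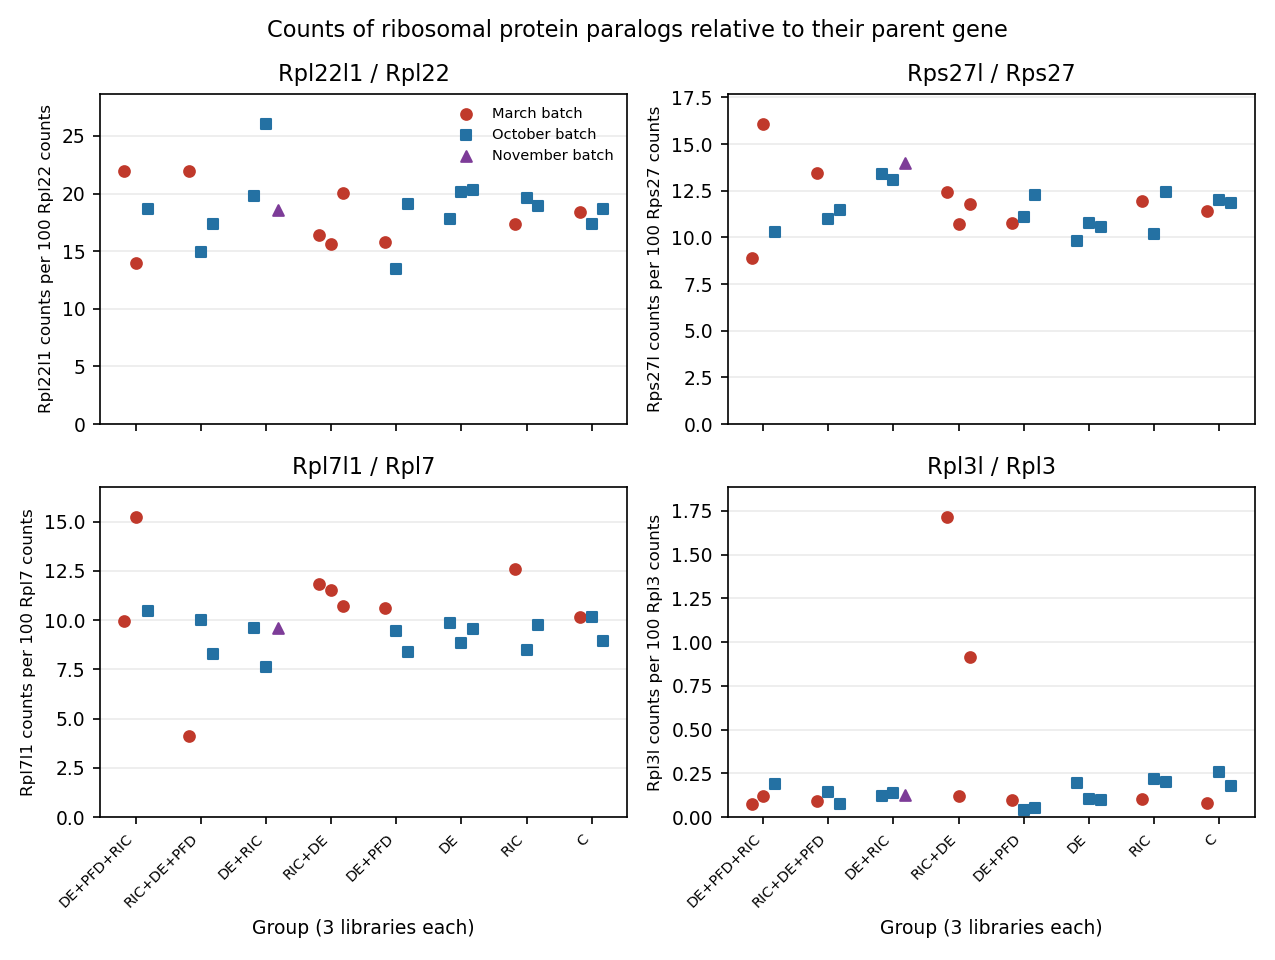
Counts of 4 paralogs per 100 counts of the parent gene in each library (vertical axes from 0), by group, with the batch as marker and colour. Rpl3l stands out in RIC+DE 1 and 3 (1.72 and 0.914 per 100 Rpl3 counts), and Rpl7l1 is lowest in RIC+DE+PFD 1 (4.12) and highest in DE+PFD+RIC 2 (15.2).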

How the data were processed

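Strand-specific libraries were prepared from lung poly(A) RNA, per the labels. Reads were processed with FastQC 0.12.1, fastp 0.23.4, STAR 2.7.11b and featureCounts on GRCm39, and R 4.4.1 and DESeq2 are named for the authors' analysis, per the submitters' processing notes. The deposited table holds raw read counts per gene, unscaled, by the authors. Which annotation release and strand setting were used, and how multi-mapping reads were counted, are not stated in these sources, so counts of near-identical copies and overlapping genes are uncertain.

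Symbols, gene types and transcript lengths came from an annotation of GRCm38 matched by gene identifier, which named 51486 of the 78275 genes with 98.45% of the counts. Total counts were 3906807 to 18494156 per library. Libraries of a group differed by more than sampling noise (chi-square per gene of 5.64 to 215). Same-numbered libraries did not deviate together, so numbers were not taken as pairs.

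The tests used edgeR 4.0.16 under R 4.3.3 (quasi-likelihood, TMM, filterByExpr, 17490 genes) with terms for batch and group over all 24 libraries, and Benjamini-Hochberg adjustment over all tested genes with a threshold of 0.05. The November library had its own batch term. CPM values use TMM-scaled library sizes, and mean levels log2 CPM with a prior count of 2. The procedure was also run on simulated data, with the outcome not reported here, so the text does not say how small a change the tests could detect. The members and lists were chosen with earlier results of these data known, so no test was made over them. All members were accounted for, and those named are the paralogs and their parents, the ends of the per-length order, of each comparison and of the spread, and further examples by role chosen after their values were seen. Alternatives used DESeq2 1.42.0, limma 3.58.1 and other scalings, filters, terms and libraries. Some members that the naming rule covers are not reported by name here.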

Additional observations from a re-analysis of the deposited data

How the results depend on the processing

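Of the results recomputed under the alternatives, 950 kept their side of the threshold or moved by less than the spread between libraries, and 34 moved further. That spread was 0.50 with RIC+DE+PFD 1 included and 0.31 without it. By this wide rule a median could change sign and count as kept, as RIC minus C did, from -0.02 to 0.30 without RIC 1. Comparisons with 0 members called before and after also count as kept. Medians are of the members' log2 fold changes. RIC+DE minus DE moved to -0.52 with limma voom and quality weights, -0.74 with the length trend removed, -0.72 with that and the replicate block, and -0.73 without both RIC+DE+PFD 1 and DE 1. In it 70 members were called with no filter (2.73% of genes called) and 77 with the compared groups alone (23.3%). RIC+DE+PFD minus DE moved from above to below 0, to -0.076 with quality weights, -0.21 with October libraries alone or the compared groups alone, and -0.22 without both libraries. RIC+DE+PFD minus DE+PFD moved to 0.020 with quality weights, -0.029 with October libraries alone and -0.0091 without both libraries, and 55 members were called with no filter (1.63%). The interaction of pirfenidone and preconditioning moved to 0.53 with quality weights, 1.26 with the length trend removed, 1.27 with that and the replicate block, 0.68 without both libraries and 2.79 with the compared groups alone. In it 77 members were called with no filter (5.27%), 74 with no batch term (9.45%), 77 with DESeq2 (4.09%) and 78 with the compared groups alone (7.77%). In the batch term 41 members were called with quality weights (18.9%) and 18 without both libraries (13.9%). The level of RIC+DE+PFD 1 was 1.17 with the length trend removed. The cause of these moves was not tested.

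With 1 library left out in turn, the members called numbered 0 to 78 in the preconditioning interaction, 0 to 19 in the batch term and 0 in the other comparisons. The medians ran from -1.52 to -0.72 in RIC+DE minus DE, -0.22 to 1.11 in RIC+DE+PFD minus DE, -0.010 to 1.43 in RIC+DE+PFD minus DE+PFD and 0.67 to 2.59 in the preconditioning interaction. In the others they ran from 0.28 to 0.58 in DE minus C, -0.23 to 0.30 in RIC minus C, -0.60 to -0.16 in DE+PFD minus DE, -0.21 to 0.01 in DE+RIC minus DE, -0.94 to -0.36 in DE+PFD+RIC minus DE, -0.66 to -0.18 in DE+PFD+RIC minus DE+PFD and -0.57 to -0.07 in the perconditioning interaction. Of 84 same-numbered pairs of libraries in different groups, 16 had correlated deviations above 0.1, with a median of -0.0009. The replicate block with the batch term gave medians of -1.27 in RIC+DE minus DE, 0.43 in DE minus C and 2.25 in the preconditioning interaction, and called 0 members in each of the 11 comparisons. The length of all exons joined, chosen after seeing the data, reorders the levels per length as given above. Depth limits Rpl3l, with 1 to 18 counts in 22 libraries, and the untested Rpl10l, Rpl24, Rpl39l and Rps10.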
